A study of Mus musculus with 9 samples.

Results

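The 10 genes described here encode transforming growth factor beta (TGF-beta) ligands, their receptors, 2 proteins of the latent TGF-beta binding protein family and 1 induced matrix protein. They were chosen by name, as Tgfb1, Tgfb2, Tgfb3, Inhba, Tgfbr1, Tgfbr2, Tgfbr3, Ltbp1, Ltbp2 and Tgfbi, and are 10 of the 54456 gene names counted. All 10 were among the 18051 gene names with enough counts to be tested. RNA was sequenced from wild-type (WT) mammary epithelium of the mouse, separated by flow cytometry into basal and luminal cells that were then formed into aggregates. Mixed aggregates held a 50% mixture of both cell kinds, luminal aggregates held luminal cells alone and basal aggregates held basal cells alone, with 3 libraries of each. All aggregates lay in 80% Matrigel beside heparin sulfate beads, 100 to 150 µm across, soaked in the fibroblast growth factor FGF10 at 100 µg/mL. They were collected after 56 hours of migration by the treatment label and 55 hours by the titles. No aggregate without FGF10 is among the 9 libraries. The labels give no age for the mice. Whether each library came from its own animal or culture is not labelled, so p-values rest on the spread between libraries, which may be technical.

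TGF-beta ligands are secreted as latent complexes with their own propeptides, which latent TGF-beta binding proteins anchor in the extracellular matrix until integrins or proteases release the ligand. The freed ligand binds the type II receptor, which recruits and phosphorylates the type I receptor, and SMAD proteins then carry the signal to the nucleus. In the mammary gland TGF-beta is known for restraining ductal growth and branching and for its part in epithelial-mesenchymal transition.

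Of the 3 ligands, those from Tgfb1 and Tgfb3 carry an Arg-Gly-Asp (RGD) tripeptide in the propeptide, by which αv integrins bind the latent complex. The coding sequence of each was read from the GENCODE M21 transcripts of the reference (build GRCm38), and 15 codons around each RGD are shown, with the codons for Arg, Gly and Asp in capitals. The Tgfb1 stretch starts at codon 238 of 390 and crosses an exon junction within chr7:25696995-25697168 (plus strand). The Tgfb3 stretch starts at codon 255 of 412 and lies within 1 exon at chr12:86062147-86062191 (minus strand). No RGD was present in the 414 codons of Tgfb2. The matrix protein encoded by Tgfbi has an RGD near its end, at codon 642 of 683, and its stretch lies within chr13:56636668-56637181 (plus strand).
Tgfb1: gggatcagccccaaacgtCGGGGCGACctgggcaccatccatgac
Tgfb3: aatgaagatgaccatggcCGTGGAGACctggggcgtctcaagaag
Tgfbi: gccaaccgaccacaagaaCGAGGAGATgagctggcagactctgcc

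The libraries held 15585324 to 19164405 counted read pairs. Levels are given as CPM, counts relative to library size after scaling by trimmed mean of M-values (TMM), for comparisons of 1 gene between groups, and as TPM, which also divide by exon length, for comparisons between genes. In CPM, 3 counts were worth 0.152 to 0.187. The summed CPM of 8 basal markers ran from 6075 to 7221 in mixed, from 1400 to 2754 in luminal and from 9323 to 10628 in basal aggregates, and that of 8 luminal markers from 9186 to 10709 in mixed, from 7499 to 10182 in luminal and from 3459 to 3932 in basal aggregates. Luminal aggregates were not free of basal keratin RNA: Krt14 averaged 2114 ± 718 CPM in luminal and 4519 ± 344 CPM in basal aggregates (SD, n = 3 each), while Krt5 averaged 17.7 ± 5.16 CPM in luminal and 1842 ± 244 CPM in basal aggregates. Of the luminal markers, Krt19 made much of the mixed sum, at 4537 ± 512 CPM in mixed and 1336 ± 285 CPM in luminal aggregates. Singly, the luminal markers stood in mixed aggregates at 36.3% (Cldn4) to 340% (Krt19) of their luminal mean. Kit (205%) and Elf5 (113%) also exceeded that mean, while Krt18 (51.0%), Muc1 (67.6%), Epcam (78.7%) and Krt8 (92.1%) did not. In bulk RNA, fewer cells of a kind and less RNA per cell cannot be told apart.

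The library codes in the column names fall into 3 series, whose meaning the labels leave unstated. Series A holds all 3 mixed libraries and basal 2, series B holds luminal 1, basal 1 and basal 3, and series C holds luminal 2 and luminal 3. Called differences of the 10 genes, and others where stated, are therefore also given from a second model that includes the code series, which compares libraries within a series and leaves 4 residual degrees of freedom in place of 6. In that fit mixed and luminal aggregates, which share no series, are linked only through basal libraries. Mixed and basal aggregates are compared there through basal 2 alone, the only basal library of series A.

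Tests are edgeR quasi-likelihood tests over all 18051 genes, with Benjamini-Hochberg adjusted p-values (adjusted p) called below 0.05, and log2 differences in CPM are given with their standard error (SE). The 10 genes were chosen with earlier results of these data known, so the shares of all tested genes beside them are descriptions and not a test. In luminal against basal aggregates, 6 of the 10 genes were called, where 27.1% of all tested genes were. Tgfb2, Tgfb3, Ltbp1 and Ltbp2 were higher in luminal aggregates, where 12.8% of all tested genes were higher, and Tgfbr3 and Tgfbi were lower, where 14.4% of all tested genes were lower. The groups did not overlap for 7 of the 10 genes, against 46.6% of all tested genes. The median log2 difference was 0.11 over the 10 genes and -0.02 over all tested genes. Including the code series left 3 calls, those of Tgfb3, Ltbp2 and Tgfbr3, and called 13.9% of all tested genes. In that model the luminal side rests on luminal 1, the one luminal library that shares a series with basal ones.

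In mixed against basal aggregates, 3 of the 10 genes were called (13.7% of all tested genes), with Tgfb3 and Ltbp2 higher in mixed aggregates (6.39% of all tested genes were higher) and Tgfbr3 lower (7.33% were lower). The groups did not overlap for 6 genes (33.1% of all tested genes). In mixed against luminal aggregates, 3 were called (29.4% of all tested genes), with Inhba and Tgfbi higher in mixed aggregates (15.2%) and Tgfb3 lower (14.2%), and the groups did not overlap for 3 genes (51.1% of all tested genes). The median log2 difference of the 10 genes was 0.60 in mixed against basal aggregates, beside -0.07 over all tested genes, and -0.29 in mixed against luminal aggregates, beside -0.05. The model with the code series called 4 genes in mixed against basal aggregates (4.73% of all tested genes), Ltbp1 joining the other 3, and 0 of the 10 in mixed against luminal aggregates (2.72%), where edgeR's unadjusted p was below 0.05 for 3 (Tgfb3, Inhba and Ltbp1). The 3 comparisons share libraries pairwise. A test against a change of at least 2-fold, added after the data were seen, called 2 of the 10 in mixed against basal aggregates (2.09% of all tested genes), Tgfb3 higher and Tgfbr3 lower, and 1 in mixed against luminal aggregates (5.24%, with 3.65% higher and 1.60% lower), Tgfbi at an adjusted p of 0.0499.

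**Figure D1:**
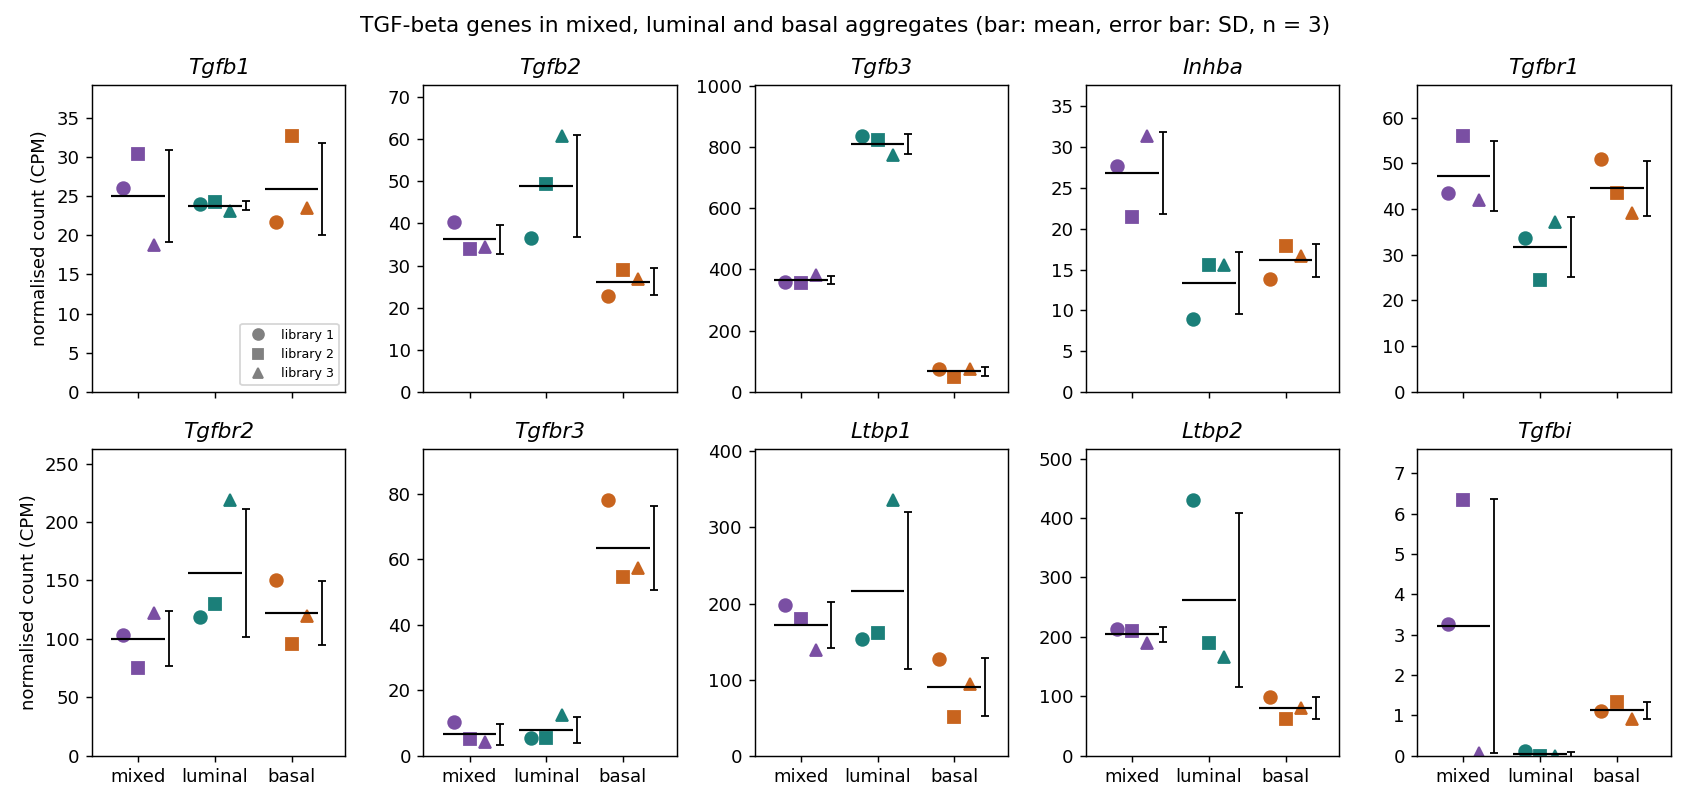
Normalised counts (CPM, linear axis from 0) of the 10 genes in each mixed, luminal and basal library, with 1 symbol per library number, a horizontal bar for the group mean and an error bar for the SD (n = 3). Tgfb3 separates all 3 groups, Tgfbr3 is high in the 3 basal libraries, and Tgfb1 lies between 18.7 and 32.7 CPM in all 9 libraries.

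Among the ligands, Tgfb3 (chromosome 12, 86103519 to 86125815, minus strand, build mm39) differed most between the aggregates. It had 359, 355 and 380 CPM in mixed aggregates, 835, 823 and 773 CPM in luminal aggregates and 75.7, 49.3 and 75.3 CPM in basal aggregates. The 3 groups did not overlap, and every mixed library lay between the luminal and the basal ones. The log2 difference was 3.60 ± 0.20 between luminal and basal aggregates (adjusted p = 3.3e-07) and 2.45 ± 0.19 between mixed and basal aggregates (adjusted p = 2.4e-05). Including the code series made these 3.47 (adjusted p = 6.8e-06) and 2.89 (adjusted p = 0.00016). The second of these values sets all mixed libraries against basal 2, which had the lowest Tgfb3 level of all libraries. Mixed aggregates were lower than luminal ones by a log2 difference of -1.15 ± 0.18 (adjusted p = 0.0012), which became -0.58 with the code series in the model (adjusted p = 0.35). The test against a 2-fold change called Tgfb3 in mixed against basal aggregates (adjusted p = 0.00032, where 1.43% of all tested genes were called higher) and not in mixed against luminal aggregates (adjusted p = 0.43). Of the exon bases of Tgfb3, 12.4% are also covered by 2 other gene names, neither of which exceeded 31 counts in a library. By the counter's default, read pairs that overlap more than 1 name were counted for none, so these counts do not show how many Tgfb3 pairs were lost.

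Tgfb2 (chromosome 1, 186354989 to 186438186, minus strand) had 40.2, 34.0 and 34.4 CPM in mixed aggregates, 36.4, 49.4 and 60.7 CPM in luminal aggregates and 22.8, 28.9 and 26.8 CPM in basal aggregates. All luminal and all mixed libraries exceeded all basal libraries, and mixed and luminal libraries overlapped. The log2 difference between luminal and basal aggregates was 0.90 ± 0.21 (adjusted p = 0.0082). It was 0.56 with the code series in the model (adjusted p = 0.22), where luminal 1, the only luminal library of series B, was the lowest of the 3. The log2 difference between mixed and basal aggregates was 0.47 ± 0.21 (adjusted p = 0.17), and 0.32 when the code series was included (adjusted p = 0.58).

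Tgfb1 (chromosome 7, 25386427 to 25404502, plus strand), the most widely studied ligand, had 26.0, 30.3 and 18.7 CPM in mixed aggregates, 24.0, 24.2 and 23.1 CPM in luminal aggregates and 21.7, 32.7 and 23.5 CPM in basal aggregates. All 3 groups overlapped. The log2 difference was -0.13 ± 0.24 between luminal and basal aggregates (adjusted p = 0.75), -0.05 ± 0.23 between mixed and basal aggregates (adjusted p = 0.91) and 0.07 ± 0.24 between mixed and luminal aggregates (adjusted p = 0.84). Including the code series gave 0.089, -0.38 and -0.47 (adjusted p of 0.93, 0.57 and 0.78).

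The promoters of Tgfb1, which was not called in any comparison, and Tgfb2, which was higher in luminal aggregates, are shown for their contrast in sequence. Both are RefSeq windows from 250 bases before to 50 after the gene's start (build GRCm38.p6), read on the gene's strand, and 8 of the 10 genes matched an entry. The Tgfb1 window, chr7:25686752-25687051 (plus strand), is 77% G or C. It holds 6 matches to the GC box GGGCGG on either strand, in capitals, and none to TATAAA. The Tgfb2 window, chr1:186705940-186706239 (minus strand), is 54.3% G or C. It holds no GGGCGG and 1 TATAAA, in capitals, that begins 31 bases before the start. Of 32851 promoter windows, 35.7% hold GGGCGG and 13.6% hold TATAAA on either strand. No window of the 8 genes holds the AP-1 motif TGANTCA (7.81% of all windows) or the SMAD palindrome GTCTAGAC (0.213% of all windows). A match is a description of the letters and not a binding site.
Tgfb1: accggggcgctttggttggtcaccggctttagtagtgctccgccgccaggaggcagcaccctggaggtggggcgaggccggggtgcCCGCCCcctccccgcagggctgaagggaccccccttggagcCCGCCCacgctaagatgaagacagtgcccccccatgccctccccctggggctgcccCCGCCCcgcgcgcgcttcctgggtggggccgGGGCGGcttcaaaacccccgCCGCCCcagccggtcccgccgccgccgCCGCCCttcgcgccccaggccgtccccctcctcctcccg
Tgfb2: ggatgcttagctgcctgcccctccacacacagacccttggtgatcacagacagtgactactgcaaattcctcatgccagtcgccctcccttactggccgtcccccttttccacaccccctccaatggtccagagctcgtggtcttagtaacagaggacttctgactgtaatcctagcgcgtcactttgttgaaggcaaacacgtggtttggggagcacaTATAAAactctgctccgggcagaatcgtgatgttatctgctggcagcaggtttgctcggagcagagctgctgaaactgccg

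Per exon length, Tgfb3 was the most abundant of the 3 ligands in all 9 libraries. Its share of the summed TPM of Tgfb1, Tgfb2 and Tgfb3 was 89.8%, 89.8% and 92.1% in mixed aggregates, 95.7%, 94.8% and 93.8% in luminal aggregates and 73.1%, 56.0% and 70.6% in basal aggregates. The 3 groups did not overlap in this share, with luminal libraries highest and basal libraries lowest. The mean share was 90.6 ± 1.33% in mixed, 94.8 ± 0.95% in luminal and 66.5 ± 9.26% in basal aggregates (SD, n = 3 each). An exact two-sided permutation test of each pairwise difference gave p = 0.1, the smallest that 3 against 3 libraries allow. Within series A, the share was 89.8% to 92.1% in the mixed libraries against 56.0% in basal 2. Within series B it was 95.7% in luminal 1 against 70.6% and 73.1% in the basal libraries.

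The 3 ligands together came to 243 ± 11.1 TPM in mixed, 645 ± 55.7 TPM in luminal and 78.0 ± 21.7 TPM in basal aggregates (SD, n = 3 each). These sums are not TMM-scaled, so the size of their differences between groups is not that seen in CPM. In CPM, Tgfb3 alone averaged 365 in mixed, 810 in luminal and 66.8 in basal aggregates. The ratio of Tgfb3 to Tgfb1 in TPM was 17.4 to 30.2 in mixed, 49.9 to 51.8 in luminal and 2.25 to 5.20 in basal libraries. Tgfb3 ranked 717 to 797 by TPM among the 54456 gene names in mixed libraries, 218 to 295 in luminal libraries and 2704 to 4376 in basal libraries.

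**Figure D2:**
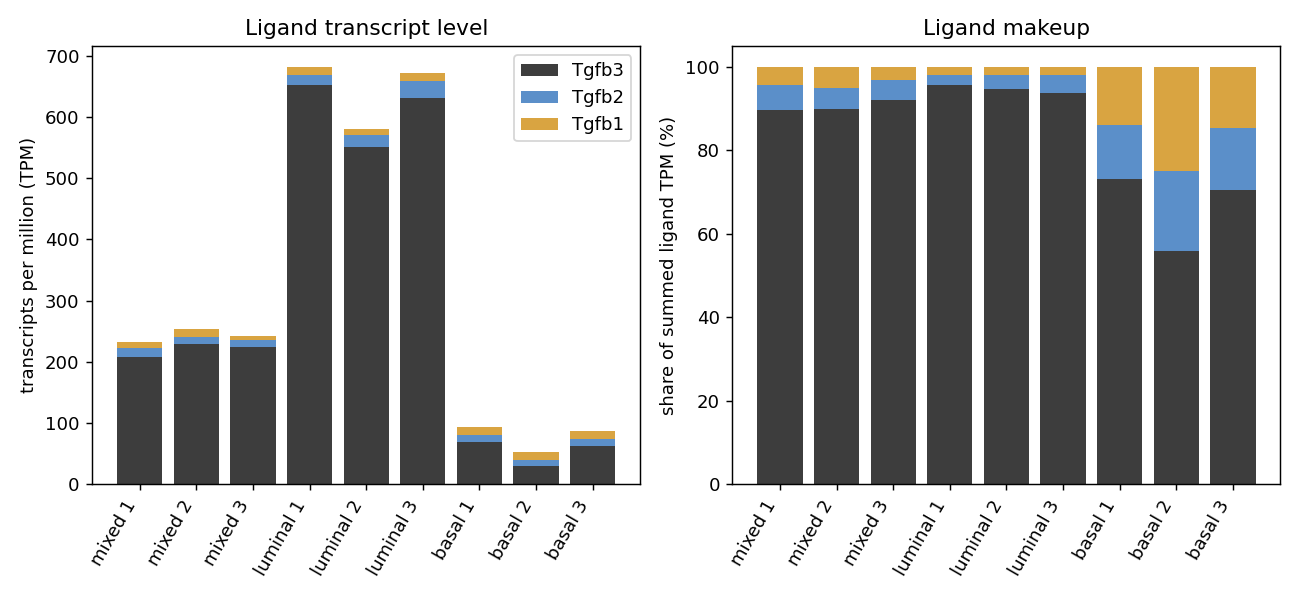
Left, TPM of Tgfb3, Tgfb2 and Tgfb1 stacked for each of the 9 libraries. Right, the share of each ligand in their summed TPM (%), with Tgfb3 at 93.8% to 95.7% in luminal libraries and 56.0% to 73.1% in basal libraries.

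Inhba (chromosome 13, 16186436 to 16206206, plus strand) encodes the subunit that forms activin A, a ligand that signals through the same SMADs by its own receptors. It had 27.8, 21.4 and 31.4 CPM in mixed aggregates, 8.96, 15.6 and 15.6 CPM in luminal aggregates and 13.9, 17.9 and 16.7 CPM in basal aggregates. All 3 mixed libraries lay above all 6 others, and the luminal and basal libraries overlapped. Mixed aggregates exceeded luminal ones by a log2 difference of 1.01 ± 0.27 (adjusted p = 0.018) and basal ones by 0.73 ± 0.27 (adjusted p = 0.091). The call against luminal aggregates was lost without luminal 1 (0.78, adjusted p = 0.068) and without mixed 3 (0.87, adjusted p = 0.057). With the code series in the model the log2 difference from luminal aggregates was 1.36 (adjusted p = 0.25) and that from basal aggregates 0.59 (adjusted p = 0.39). The larger of the 2 p-values, adjusted over all genes, did not place Inhba outside both pure kinds (adjusted p = 0.29). None of the 10 genes was called so in edgeR (unadjusted p was below 0.05 for 1, Inhba), where 0.0886% of all tested genes were (0.0499% above and 0.0388% below both).

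Among the receptors, Tgfbr3 (betaglycan, chromosome 5, 107254436 to 107437495, minus strand), a co-receptor that presents ligand, TGF-beta 2 above all, to the type II receptor, had a level that set basal aggregates apart. It had 10.2, 5.23 and 4.25 CPM in mixed aggregates, 5.40, 5.52 and 12.4 CPM in luminal aggregates and 78.2, 54.5 and 57.5 CPM in basal aggregates. The basal libraries lay far above all others, and mixed and luminal libraries overlapped. The log2 difference was -3.03 ± 0.41 between luminal and basal aggregates (adjusted p = 0.00018) and -3.27 ± 0.41 between mixed and basal aggregates (adjusted p = 0.00051). Including the code series made these -3.65 (adjusted p = 0.0062) and -3.05 (adjusted p = 0.0074). The fall in mixed aggregates also passed the test against a 2-fold change (adjusted p = 0.0034, where 0.665% of all tested genes were called lower). Between mixed and luminal aggregates the log2 difference was -0.24 ± 0.39 (adjusted p = 0.68), and 0.60 with the code series in the model. Another gene name covers 4.54% of the exon bases of Tgfbr3 and did not exceed 51 counts in a library. Pairs that overlap both names were counted for neither, so the Tgfbr3 pairs lost there are not known.

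Mixed aggregates were made from both cell kinds in equal parts, yet their mean Tgfbr3 level was 10.4% of that in basal aggregates. The 8 basal markers, summed, were in mixed aggregates at 68.4% of their level in basal aggregates, and singly at 31.4% (Oxtr) to 73.5% (Krt14). Between these stood Mylk (34.4%), Myh11 (47.4%), Cnn1 (55.6%), Trp63 (59.8%), Krt5 (61.0%) and Acta2 (72.8%). Krt14, which weighs most in the sum, also averaged 2114 CPM in luminal aggregates. Relative to luminal means, mixed aggregates had 84.6% of Tgfbr3, 102% of Oxtr and 157% of Krt14. The other basal markers stood at 528% (Trp63) to 8469% (Mylk). Against the mean of the luminal and the basal group means, Tgfbr3 stood at 0.288, 0.147 and 0.119 in the 3 mixed libraries, below 1 in each. Of 697 genes that were at least 4-fold lower in luminal than in basal aggregates, with at least 10 CPM in basal ones, the median of this ratio was 0.98 and the middle 50% ran from 0.614 to 1.40. Of these genes, 26 (3.73%) had a lower ratio than Tgfbr3. For Tgfb3 the ratio was 0.819, 0.809 and 0.867. The median over 451 genes at least 4-fold higher in luminal aggregates was 0.751, and 249 of them (55.2%) lay below Tgfb3. These ratios are descriptions, since the share of RNA that each cell kind gave to a mixed library was not measured. The 697 and the 451 genes were also picked by the same pure libraries that form the ratio. They include Tgfbr3 and Tgfb3 themselves, so they are not an independent background.

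**Figure D3:**
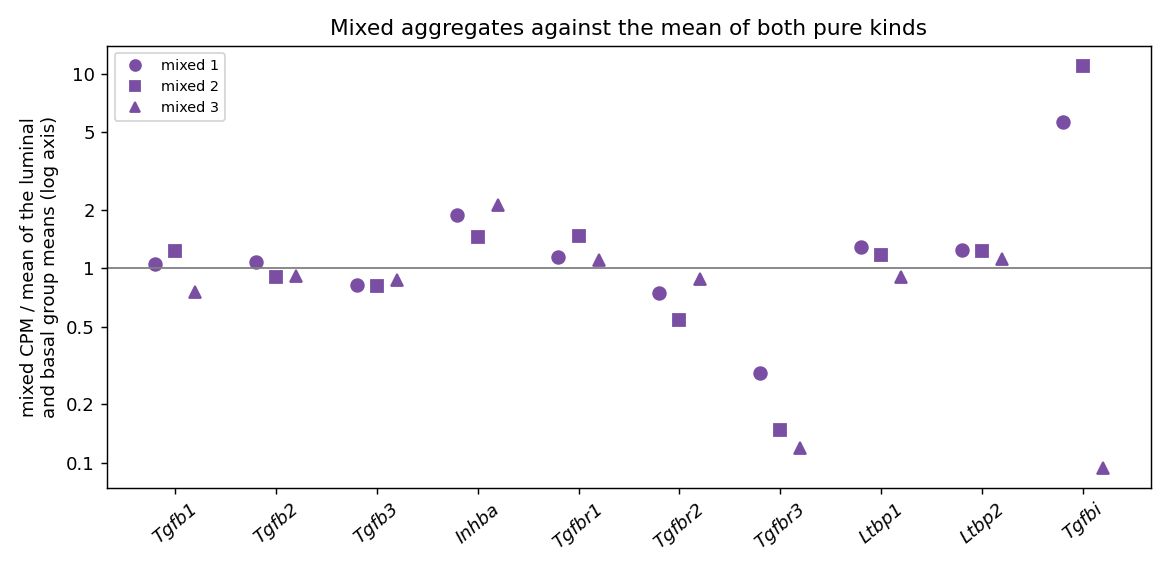
CPM of each gene in mixed libraries 1, 2 and 3, divided by the mean of the luminal and basal group means (log axis; the line marks 1). Tgfbr3 is below 0.3 in all 3 mixed libraries, Inhba is above 1.4 in all 3, and Tgfbi runs from 0.0943 to 10.97.

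No difference was called for the 2 signalling receptors. Tgfbr1 (chromosome 4, 47353222 to 47414931, plus strand), the type I receptor kinase, had 43.5, 56.0 and 42.1 CPM in mixed aggregates, 33.7, 24.4 and 37.2 CPM in luminal aggregates and 50.9, 43.5 and 39.2 CPM in basal aggregates. Every luminal library lay below all 6 others. The log2 difference was -0.49 ± 0.21 between luminal and basal aggregates (adjusted p = 0.11) and 0.57 ± 0.21 between mixed and luminal aggregates (adjusted p = 0.060). Including the code series gave -0.42 (adjusted p = 0.53) and 0.54 (adjusted p = 0.74). Tgfbr2 (chromosome 9, 115913361 to 116004428, minus strand), the type II receptor kinase, had 103, 75.2 and 122 CPM in mixed aggregates, 119, 130 and 219 CPM in luminal aggregates and 151, 95.4 and 120 CPM in basal aggregates. All 3 groups overlapped, luminal 3 was the highest library, and none of its differences was called (adjusted p of 0.38 for luminal against basal, 0.52 for mixed against basal and 0.096 for mixed against luminal aggregates). The lowest of these was 0.85 when the code series was included.

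Per exon length, Tgfbr3 stood at 0.0849 ± 0.040 of Tgfbr2 in mixed, 0.0602 ± 0.0093 in luminal and 0.655 ± 0.057 in basal aggregates (ratio of TPM, SD, n = 3 each). The ratio of Tgfbr2 to Tgfbr1 was 1.07 to 2.32 in mixed, 2.82 to 4.70 in luminal and 1.75 to 2.44 in basal libraries. Luminal libraries thus had the highest ratios of the type II to the type I receptor, and basal libraries the highest ratios of co-receptor to type II receptor.

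Ltbp1 and Ltbp2, of the latent TGF-beta binding protein family, were both higher in luminal than in basal aggregates. Of the 2 calls, that of Ltbp2 held with the code series in the model. Outside the 10 genes, Ltbp4 of the same family was lower, at 3.11 CPM in luminal and 30.2 CPM in basal aggregates (log2 difference -3.27 ± 0.48, adjusted p = 0.00038). Ltbp3 was higher, at 399 CPM in luminal and 223 CPM in basal aggregates (0.84 ± 0.28, adjusted p = 0.048), with overlapping groups. Ltbp2 (chromosome 12, 84829986 to 84923306, minus strand), a fibrillin-like matrix protein that, unlike Ltbp1, does not bind latent TGF-beta, had 214, 209 and 190 CPM in mixed aggregates, 430, 190 and 165 CPM in luminal aggregates and 99.2, 61.8 and 80.8 CPM in basal aggregates. All mixed and luminal libraries exceeded all basal ones, and luminal 1 was the highest library by a wide margin. The log2 difference was 1.70 ± 0.33 between luminal and basal aggregates (adjusted p = 0.0023), 2.26 with the code series in the model (adjusted p = 9.7e-05) and 1.15 without luminal 1 (adjusted p = 0.0034). The second of these values rests on luminal 1, the highest of the 9 libraries. Between mixed and basal aggregates it was 1.34 ± 0.32 (adjusted p = 0.020) and 1.73 with the code series in the model (adjusted p = 0.0025). The value with the code series sets all mixed libraries against basal 2, which had the lowest Ltbp2 level of all libraries. Without the code series, the call in mixed against basal aggregates was lost without basal 3 (1.33, adjusted p = 0.078), mixed 1 (1.30, adjusted p = 0.056) or mixed 2 (1.31, adjusted p = 0.056). Another gene name covers 9.34% of the exon bases of Ltbp2 and reached 262 counts in a library, and read pairs that overlap both names were counted for neither, by the counter's default.

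Ltbp1 (chromosome 17, 75312563 to 75699507, plus strand) encodes a protein that binds the latent complex and deposits it in the matrix. It had 198, 179 and 138 CPM in mixed aggregates, 153, 162 and 336 CPM in luminal aggregates and 127, 50.8 and 94.1 CPM in basal aggregates. All mixed and luminal libraries exceeded all basal ones, and luminal 3 was far above the other luminal libraries. The log2 difference between luminal and basal aggregates was 1.26 ± 0.36 (adjusted p = 0.022). With the code series in the model it was 0.47 (adjusted p = 0.55), and the call was also lost without luminal 3 (0.79, adjusted p = 0.11), without basal 2 (0.97, adjusted p = 0.056), without basal 3 (1.28, adjusted p = 0.059) and when libraries were scaled by total count alone (1.08, adjusted p = 0.061). Between mixed and basal aggregates the log2 difference was 0.92 ± 0.36 (adjusted p = 0.11). It was 1.76 with the code series in the model (adjusted p = 0.047), where all mixed libraries are set against basal 2, the lowest of the 9, and 0.89 with no filter on low counts (adjusted p = 0.00058).

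Tgfbi (chromosome 13, 56757336 to 56787375, plus strand), a matrix protein that binds collagen and integrins and was named for its induction by TGF-beta, was at the edge of detection. It had 57, 103 and 1 counts in mixed aggregates, 2, 0 and 0 counts in luminal aggregates and 22, 24 and 16 counts in basal aggregates. In CPM these were 3.26, 6.34 and 0.0545 in mixed, 0.108, 0 and 0 in luminal and 1.12, 1.32 and 0.920 in basal aggregates. The basal libraries were alike, the luminal ones lay at or below 3 counts, and the mixed libraries split, with mixed 3 at the luminal level and the other 2 above all basal ones. Summed over libraries, luminal aggregates had 0.0346 of the basal level (95% interval 0.0041 to 0.131, counting error only), and Tgfbi was lower in luminal aggregates (adjusted p = 0.041). Mixed aggregates had 79.5 times the luminal level (95% interval 21.7 to 662, from 161 against 2 counts), and the difference was called (adjusted p = 0.014), though mixed 3 fell within the luminal range.

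Neither call of Tgfbi held with the code series in the model (adjusted p = 0.49 for luminal against basal and 0.65 for mixed against luminal aggregates). The call in luminal against basal aggregates was lost when any one of 8 libraries was left out (adjusted p of 0.050 to 0.13), all but mixed 3 (0.0042). The call in mixed against luminal aggregates was lost without luminal 3 (adjusted p = 0.058). Markers of other cell types were low and differed between the groups. The summed CPM of 8 leukocyte markers was 45.0 to 65.2 in mixed, 22.3 to 53.8 in luminal and 4.43 to 49.6 in basal libraries, with no Cd79a count in luminal libraries. Cd68 made most of the luminal sums, and without it the other 7 markers summed to 39.2 to 61.4 CPM in mixed, 1.42 to 3.61 CPM in luminal and 1.38 to 45.7 CPM in basal libraries. The basal maximum was basal 2 alone, with 15.4 CPM of Lyz2 and 27.3 CPM of Cd74. The sum over 7 fibroblast markers was 48.4 to 71.1 in mixed, 6.77 to 11.01 in luminal and 120 to 153 in basal libraries, with no Col1a2 count in luminal libraries. Fbln1 made most of the basal sum, at 31.6 ± 2.11 CPM in mixed, 0.689 ± 0.474 CPM in luminal and 106 ± 22.1 CPM in basal aggregates (SD, n = 3 each). Without it the other 6 summed to 15.9 to 38.0 CPM in mixed, 6.53 to 10.4 CPM in luminal and 21.5 to 29.1 CPM in basal libraries, so mixed and basal libraries overlapped. Mixed 3, with 1 Tgfbi count, had the highest fibroblast sum of the mixed libraries. Its leukocyte sum of 58.5 CPM lay between those of mixed 1 and mixed 2. Single leukocyte markers differed between the mixed libraries. In mixed 1, 2 and 3, Ptprc had 13, 9 and 1 counts, Lyz2 had 145, 547 and 245 and Cd79a had 44, 3 and 2. Cd68, Cd74 and Csf1r were highest in mixed 3. The part of leukocytes and fibroblasts in the Tgfbi counts was not tested.

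**Figure D4:**
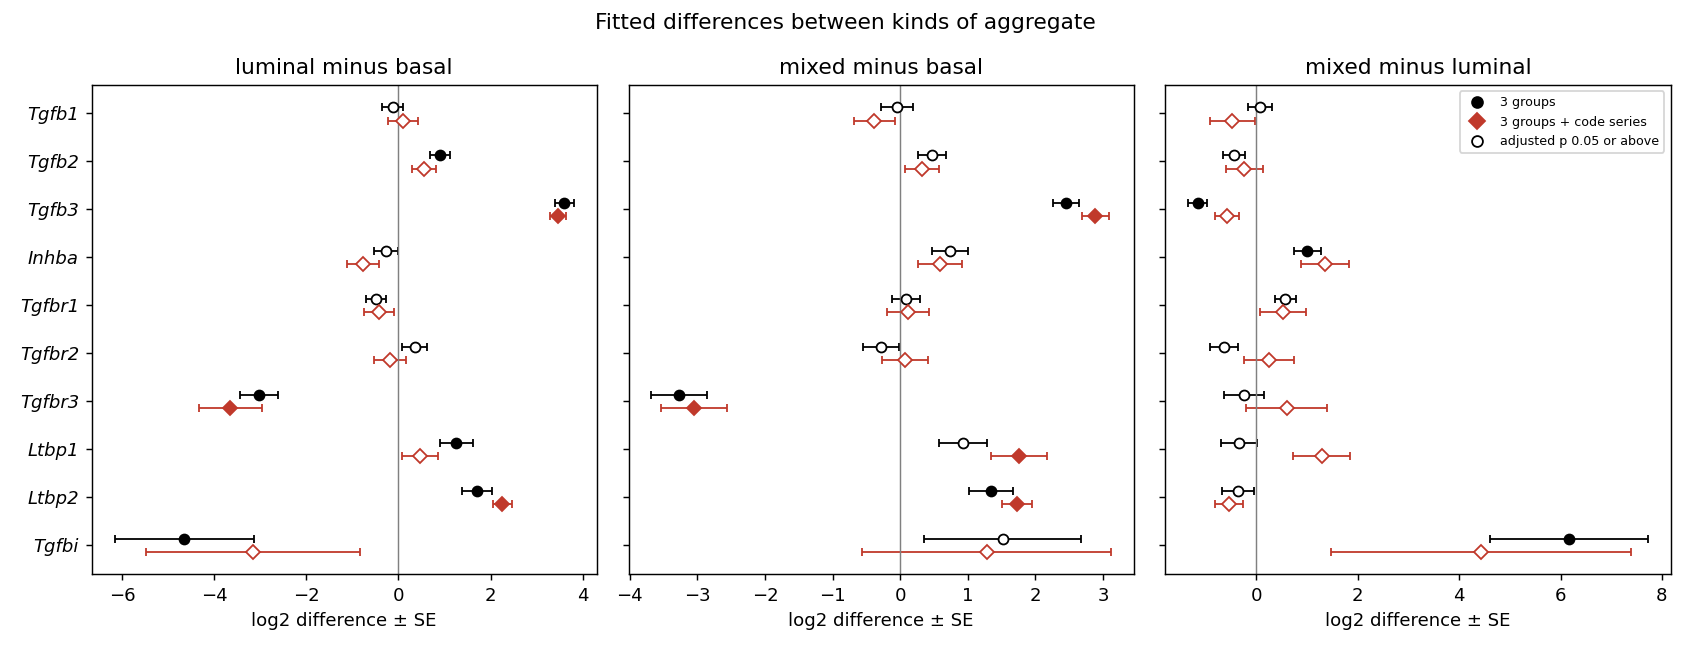
Log2 differences ± SE of the 10 genes in luminal minus basal, mixed minus basal and mixed minus luminal aggregates, from the fit with 3 groups (black circles) and with the code series added (red diamonds). Filled symbols have an adjusted p below 0.05. Tgfb3, Ltbp2 and Tgfbr3 keep filled symbols in both fits against basal aggregates, and no red symbol is filled in mixed minus luminal aggregates.

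By mean TPM the order within mixed aggregates was Tgfb3 (220), Ltbp2 (51.0), Ltbp1 (32.9), Tgfbr2 (24.8), Tgfbr1 (14.8), Tgfb2 (12.7), Tgfb1 (10.2), Inhba (8.53), Tgfbr3 (2.03) and Tgfbi (1.80). Neighbours from Ltbp1 to Tgfbr2, from Tgfbr1 through to Inhba and from Tgfbr3 to Tgfbi overlapped between libraries. Within luminal aggregates Tgfb3 (611.5 TPM) again stood above Ltbp2 (82.5), Ltbp1 (53.0) and Tgfbr2 (49.4), which overlapped with their neighbours, and Tgfbr3 (3.10) and Tgfbi (0.025) came last. Basal aggregates were flatter. Tgfb3 (53.2 TPM), Tgfbr2 (40.1), Ltbp2 (26.6), Tgfbr3 (25.9), Ltbp1 (23.4) and Tgfbr1 (18.0) formed a chain in which each of the first 5 overlapped with the next, and Tgfbr3 was at position 4 of the order, against position 9 in both other kinds.

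The genes whose log2 CPM followed each ligand most closely over the 9 libraries were taken from 10617 genes with at least 10 CPM on average. For Tgfb3 they were Scara5, Rab11fip4 and Ccn5 (Pearson r of 0.997, 0.996 and 0.996). For Tgfb2 they were Sat1, Dcxr and Nr4a1 (0.959, 0.956 and 0.956), and for Tgfb1 they were Mcrs1, Rnf113a2 and Psmf1 (0.960, 0.951 and 0.937). The 9 points share 3 groups and the code series, so these values describe likeness of pattern alone.

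Other genes of the pathway were followed in 4 lists of 76 genes, of which 71 were tested. The lists too were chosen with earlier results known, so the shares of all genes beside them are descriptions. The list genes named below had group means of 3 libraries each and log2 differences with an SE of 0.18 to 0.89. In luminal against basal aggregates, 18 were higher and 17 lower, beside 12.8% higher and 14.4% lower of all tested genes. Within the model that holds the code series, 16 were higher and 14 lower, beside 7.09% and 6.80% of all tested genes. In the list of latency and activation, 8 of 19 were higher and 5 lower (4 and 5 with the code series in the model). Those with the largest rise were Itgb3 (262 CPM in luminal and 52.6 CPM in basal aggregates, log2 difference 2.32, adjusted p = 1.3e-05) and Itgb6 (42.7 CPM in luminal and 9.40 CPM in basal aggregates, log2 difference 2.18, adjusted p = 0.00027), both β subunits of αv integrins that bind the RGD shown above for Tgfb1 and Tgfb3. The largest falls were in the fibrillins, matrix proteins to which latent complexes attach. Fbn1 had 0.628 CPM in luminal and 33.1 CPM in basal aggregates (log2 difference -5.71, adjusted p = 9.6e-06), and Fbn2 had 0.181 CPM in luminal and 8.01 CPM in basal aggregates (log2 difference -5.44, adjusted p = 0.00079). All 4 calls held with the code series in the model. Of the fibroblast markers above, Fbln1 was lower in luminal than in basal aggregates in like manner. So were Col1a2 (0 CPM in luminal and 5.16 CPM in basal aggregates) and Col3a1 (0.124 CPM in luminal and 2.89 CPM in basal aggregates). Smaller differences were seen in Col1a1 (2.76 CPM in luminal and 5.63 CPM in basal aggregates) and Dcn (3.40 CPM in luminal and 5.95 CPM in basal aggregates). Pdgfra averaged 2.46 CPM in luminal and 5.98 CPM in basal aggregates. Their part in the fibrillin counts was not tested.

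In the list of other ligands, receptors and antagonists, 3 of 11 rose in luminal against basal aggregates and 2 fell. Of all tested genes, 12.8% were higher and 14.4% lower, so the counts of this short list are descriptions only. With the code series in the model 2 rose and 2 fell, beside 7.09% and 6.80% of all tested genes. Acvrl1, the type I receptor ALK1, averaged 25.4 CPM in luminal and 7.79 CPM in basal aggregates (log2 difference 1.71, adjusted p = 0.0019). Fst, the activin antagonist follistatin, averaged 9.15 CPM in luminal and 77.9 CPM in basal aggregates (-3.09, adjusted p = 1.3e-05). Bambi, a pseudoreceptor that blocks TGF-beta signalling, averaged 10.2 CPM in luminal and 39.8 CPM in basal aggregates (-1.96, adjusted p = 0.00055). Fstl3, a second activin antagonist, averaged 7.39 CPM in luminal and 3.02 CPM in basal aggregates (1.29, adjusted p = 0.035), a call lost with the code series in the model (adjusted p = 0.18). Activin's antagonists thus did not move in 1 direction.

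Of 19 SMADs and regulators, 2 rose in luminal against basal aggregates and 0 fell in edgeR (unadjusted p was below 0.05 for 4), where 12.8% of all tested genes rose. With the code series in the model 5 rose and 0 fell, where 7.09% of all tested genes rose. These 5, named after their values were seen, were Skil, Ski, Smad6, Smad7 and Pmepa1. Without the series, only Skil of these was called. There the log2 difference was 0.76 for Smad6 (adjusted p = 0.089) and 0.61 for Pmepa1 (adjusted p = 0.21). It was 0.46 for Smad7 (adjusted p = 0.27) and 0.25 for Ski (adjusted p = 0.62). Skil, a repressor that binds SMADs, had a log2 difference of 0.66 (adjusted p = 0.017) and Smurf1, a ubiquitin ligase for SMADs and receptors, one of 0.63 (adjusted p = 0.037, and 0.55 with the code series in the model). Of 22 genes known to respond to TGF-beta, 5 were higher and 10 lower, beside 12.8% and 14.4% of all tested genes. With the code series in the model 5 were higher and 7 lower, beside 7.09% and 6.80%. Angptl4 averaged 426 CPM in luminal and 64.2 CPM in basal aggregates (2.73, adjusted p = 0.00020) and Ccn2, the connective tissue growth factor, 223 CPM in luminal and 77.7 CPM in basal aggregates (1.52, adjusted p = 0.00063). Vim (vimentin) averaged 1.37 CPM in luminal and 393 CPM in basal aggregates (-8.14, adjusted p = 7.5e-06) and Snai2, a transcription factor of basal cells, 1.06 CPM in luminal and 91.2 CPM in basal aggregates (-6.41, adjusted p = 1.8e-05). Several of these response genes, Vim, Snai2 and Acta2 among them, are also genes of basal cells.

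In mixed against basal aggregates, 9 of the 71 list genes were higher and 5 lower, beside 6.39% higher and 7.33% lower of all tested genes, so the share of lower ones was near the background. The model that holds the code series gave 5 higher and 4 lower, where it called 4.73% of all tested genes in either direction. Itgb6 averaged 29.8 CPM in mixed aggregates against 9.40 CPM in basal ones (log2 difference 1.66, adjusted p = 0.0053), and Itgb3 averaged 114 CPM in mixed aggregates against 52.6 CPM in basal ones (1.11, adjusted p = 0.0067). Mmp2, a protease of the matrix, averaged 13.6 CPM in mixed aggregates against 53.3 CPM in basal ones (-1.97, adjusted p = 0.015), and Itgb5 averaged 56.5 CPM in mixed aggregates against 100.2 CPM in basal ones (-0.83, adjusted p = 0.026). Inhbb, the subunit of activin B, averaged 234 CPM in mixed aggregates against 116 CPM in basal ones (1.01, adjusted p = 0.0042). Among response genes Timp3, an inhibitor of matrix proteases, averaged 633 CPM in mixed aggregates against 176 CPM in basal ones (1.84, adjusted p = 0.0046), and Itga5, the fibronectin receptor subunit, averaged 9.46 CPM in mixed aggregates against 28.6 CPM in basal ones (-1.60, adjusted p = 0.0023). Timp1 (0.91), Tgfb1i1 (-1.28) and Skil (0.64) were also called. When the code series was included, Itgb6, Itgb3, Timp3 and Itga5 kept their calls, and Mmp2, Itgb5, Inhbb, Timp1, Tgfb1i1 and Skil did not.

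In mixed against luminal aggregates, 18 of the 71 were higher and 9 lower, beside 15.2% higher and 14.2% lower of all tested genes, so the share of lower ones was near the background. Fst averaged 130 CPM in mixed and 9.15 CPM in luminal aggregates (log2 difference 3.83, adjusted p = 8.0e-06) and 77.9 CPM in basal aggregates, a difference between mixed and basal aggregates that was not called. Bambi averaged 48.2 CPM in mixed and 10.2 CPM in luminal aggregates (2.24, adjusted p = 0.00047), and Fbn1 averaged 18.6 CPM in mixed and 0.628 CPM in luminal aggregates (4.88, adjusted p = 5.7e-05). Vim averaged 186 CPM in mixed and 1.37 CPM in luminal aggregates (7.06, adjusted p = 3.5e-05), and Acta2, smooth muscle actin, averaged 1895 CPM in mixed and 44.6 CPM in luminal aggregates (5.41, adjusted p = 1.8e-05). Lower in mixed aggregates were Ltbp3, another latency protein (126 CPM in mixed and 399 CPM in luminal aggregates, -1.66, adjusted p = 0.0021), Itgb5 (-1.67, adjusted p = 0.00029), Acvrl1 (-1.54, adjusted p = 0.0051), Angptl4 (-2.56, adjusted p = 0.00062), Ccn2 (-1.51, adjusted p = 0.0012) and Smurf1 (-0.85, adjusted p = 0.010). Fbn2 (4.64) and Trim33 (0.92) were higher. With the code series in the model, 4 of the 27 calls remained, those of Fst, Fbn1, Vim and Acta2. That model called 2.72% of all tested genes in either direction.

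**Figure D5:**
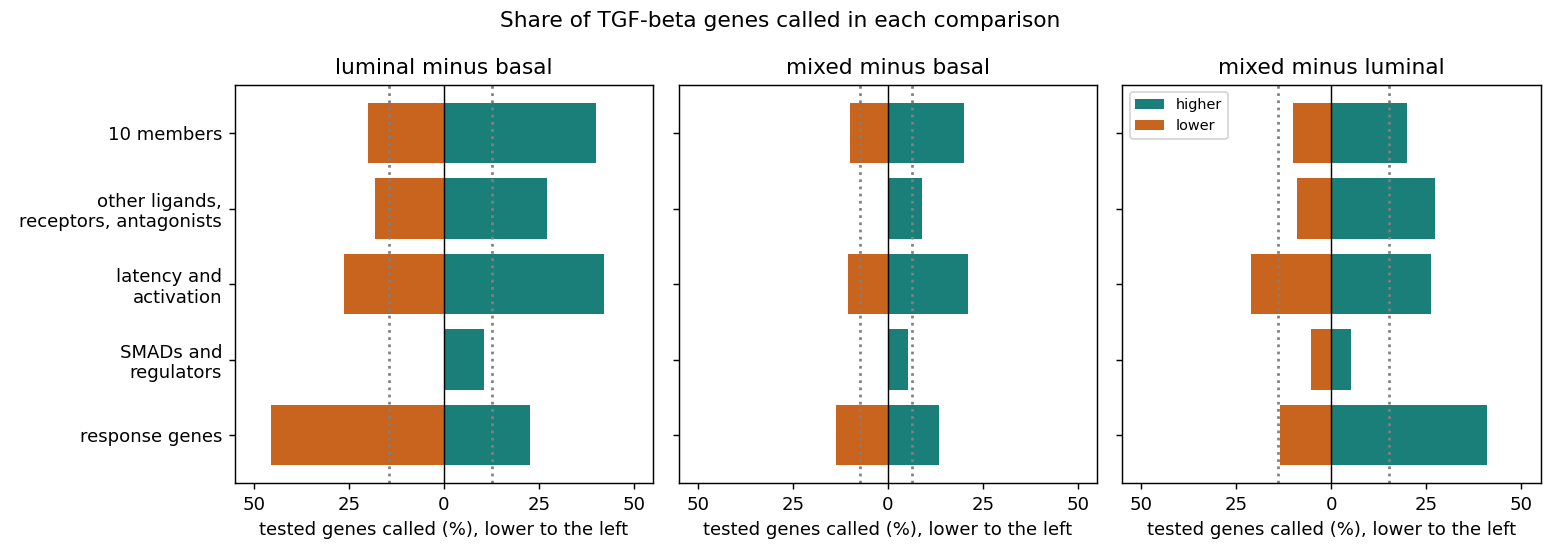
Share of tested genes called higher (to the right) and lower (to the left) in each comparison, for the 10 genes and the 4 lists of other pathway genes. Dotted lines mark the share of all tested genes, which was 12.8% higher and 14.4% lower in luminal minus basal aggregates. In this fit, without the code series, SMADs and regulators stand below both lines in each panel. Of the 19, 2 were higher in luminal minus basal and 1 in mixed minus basal aggregates, which is near the lines. With the series included, 5 of the 19 were higher in luminal than basal aggregates.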

How the data were processed

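RNA of 9 aggregates' libraries (3 mixed, 3 luminal, 3 basal) was sequenced from stranded mRNA libraries. The authors' deposited table holds raw counts of read pairs per gene name, with summed exon lengths. Per the file headers, featureCounts 2.0.1 summed exons per gene name with strand unused, so reads of antisense neighbours cannot be told apart, and with reads of several alignments not counted. Trim Galore, Subread and build mm39 are named per the submitters' processing notes. The aligner's settings and the annotation release are not stated by the header or labels. Positions come from the table's exon coordinates (mm39), and GRCm38 sequences were used for sequence alone.

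From the counts, CPM (TMM-scaled) and TPM (all gene names) were computed. In R 4.3.3, edgeR 4.0.16 filtered genes (filterByExpr), fitted all 9 libraries with 3 groups and ran robust, two-sided quasi-likelihood tests with Benjamini-Hochberg adjustment over 18051 genes. The steps were tested on simulated data. The 10 genes and the pathway lists were chosen with earlier results of these data known. From each list, up to 2 called genes with the largest rise and up to 2 with the largest fall per comparison are named (mean of at least 1 CPM, groups not overlapping). Ltbp4, Ltbp3 in luminal against basal aggregates and the SMAD regulators called with the code series are named besides. Genes most like each ligand were ranked by Pearson r of log2 CPM (prior count 2). Library numbers are those of the titles. Same-numbered libraries of different groups did not deviate together (r of -0.17 to 0.20), so the replicate block is an alternative. The descriptions carry other numbers for 5 of the 9 libraries, whose pairing was not tested. No 2 libraries were duplicates (lowest chi-square per degree of freedom 11.4 over 36 pairs). Alternatives were other scalings, DESeq2 1.42.0, filters, fits of 2 groups, the replicate block, the code series, leaving out each library and, added after the data were seen, a test against a 2-fold change. Intervals cover counting error only.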

Additional observations from a re-analysis of the deposited data

How the results depend on the processing

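With the code series added, all genes called fell to 2507 in luminal against basal aggregates, where the fit without it called 4899, to 853 in mixed against basal aggregates (2477 without it) and to 491 in mixed against luminal aggregates (5309 without it). Of the 10 genes, 3 stayed called in luminal against basal aggregates and 0 in mixed against luminal aggregates, and of the 71 list genes 9 were called in mixed against basal aggregates (14 without the series) and 4 in mixed against luminal aggregates (27 without it). In mixed against basal aggregates, DESeq2 called 4198 genes and 22 list genes, and the fit with no filter on low counts called 3903 and 28. These fits covered 33860 and 33929 genes, where the main fit tested 18051, so their counts of all genes are not on the same base. The test against a 2-fold change called 378 genes and 0 list genes in mixed against basal aggregates (unadjusted p in edgeR below 0.05 for 7 list genes), and 946 genes, 15 list genes and 1 of the 10, Tgfbi, in mixed against luminal aggregates. Leaving out 1 library gave 963 (without basal 3) to 5120 genes (without basal 2) and 7 to 21 list genes in mixed against basal aggregates, with 1176 genes without basal 1, 9 list genes without basal 1 and 8 without mixed 2. It gave 2967 (without luminal 3) to 6774 genes (without basal 2) in mixed against luminal aggregates, with 3243 without luminal 1. With the replicate block, 6, 3 and 3 of the 10 genes were called in luminal against basal, mixed against basal and mixed against luminal aggregates, as without it, and no call of the 10 genes changed; the numbers gave no sign of pairing.

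Directions turned only for differences that were not called. With the code series the log2 difference of Tgfb1 was 0.089 in luminal against basal and -0.47 in mixed against luminal aggregates. That of Tgfbr2 was -0.18 in luminal against basal, 0.070 in mixed against basal and 0.25 in mixed against luminal aggregates, and in the last of these comparisons Tgfbr3 had 0.60 and Ltbp1 1.29. Leaving out 1 library gave Tgfb1 -0.20 to 0.067 in luminal against basal, -0.23 to 0.13 in mixed against basal and -0.10 to 0.24 in mixed against luminal aggregates. It gave Tgfbr1 -0.071 to 0.20 in mixed against basal aggregates, and in mixed against luminal aggregates Tgfbr3 -0.72 to 0.26, Ltbp1 -0.54 to 0.12 and Ltbp2 -0.62 to 0.19. Scaling by total count alone gave Tgfbr1 -0.072 in mixed against basal aggregates. That scaling moved the median log2 difference of all genes to -0.17 in luminal against basal and -0.22 in mixed against basal aggregates, and the higher share of all calls to 35.0% from 47.0% and to 33.6% from 46.5%. With no filter, Tgfbr2 was called lower in mixed than in luminal aggregates (-0.68, adjusted p = 0.0099 in edgeR). Of 509 alternative values of the 10 genes, 465 kept direction and side of the threshold, 24 lost a call, 3 gained one and 17 turned. The causes were not tested. Tgfbi, with 0 to 103 counts per library, is the gene of the 10 that depth limits most.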
